A study of Mus musculus with 8 samples.

Results

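The 35 genes described here encode kinases of the DNA damage checkpoint and proteins of the main DNA repair pathways. Their expression was compared in newborn mouse skin lacking the retinoblastoma protein pRb, its relative p107, or both. Probe sets were taken as members if their only gene symbol in the platform annotation was one of the 35. This gave 64 probe sets for 33 genes, out of 22626 probe sets and 12393 genes tested. Xrcc2 had no such probe set, and Tdg was found only in 3 probe sets annotated with several symbols, so neither was analysed here. Of the 33 genes, 17 had 2 or more probe sets, which share the gene and are not independent of each other.

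The groups were pRb-/-;p107-/-, pRb-/-;p107+/+, pRb+/+;p107-/- and pRb+/+ skin, all newborn and of the FVB strain, with 2 Affymetrix arrays for each genotype. The first of these, which lacks both proteins, is also called the double mutant. Each array carried a pool of RNA from 3 animals of that genotype. The pRb+/+ labels leave the p107 genotype unsaid, and these animals are treated as p107 wild type. Neither the way pRb was removed nor the cells that lost it is stated. The series title places the deficiency in epidermis, so whole skin also holds cells that may keep pRb. The deposited value is a z-score, scaled so that the 8 values of a probe set average 0 with an SD of 1. A difference between genotypes is therefore in SDs of that probe set, and no level, fold change or presence of a tissue marker can be read from the scores. Fewer cells of a type and less RNA per cell cannot be told apart in such pools. The labels do not say whether the 2 arrays of a genotype held separate pools, so that p-values measure only the spread between these arrays, which may be technical.

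pRb and p107, encoded by Rb1 and Rbl1, bind E2F transcription factors and hold back genes needed in S phase, and several repair and checkpoint genes are among the known E2F targets. Atm and Atr are kinases that sense broken or stalled DNA and act through Chek1 and Chek2. Homologous recombination (Brca1, Brca2) and the Fanconi anaemia proteins repair breaks and crosslinks with the help of a sister copy. Mismatch repair follows replication, and nucleotide and base excision repair remove damaged bases throughout the cell cycle.

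Rb1 and Rbl1 themselves followed the genotypes only in part. The Rb1 probe set scored -1.56 and -1.28 in the double mutant, -0.22 and 0.36 in pRb-/-;p107+/+, 0.02 and 0.4 in pRb+/+;p107-/-, against 1.21 and 1.07 in pRb+/+ skin. Rb1 was thus highest on the pRb+/+ arrays, but the pRb-/-;p107+/+ and pRb+/+;p107-/- arrays overlapped. In 1 Rbl1 probe set (1424156_at) the scores were -0.31 and 0.31 in the double mutant, 1.3 and 1.14 in pRb-/-;p107+/+, -1.51 and -1.22 in pRb+/+;p107-/-, against 0.08 and 0.21 in pRb+/+ skin. Both Rbl1 probe sets were lowest on the pRb+/+;p107-/- arrays. The sources do not place the probes relative to the deleted parts of either gene. The 24 poly-A control probe sets, which measure spiked-in RNA, also differed by p107 status: their mean score ran from -0.96 to -0.55 on the 4 p107-/- arrays and from 0.19 to 1.38 on the other 4. The 18 hybridization control probe sets, which measure RNA added before hybridization, split the arrays the same way, with means from -0.8 to -0.32 on the p107-/- arrays and from -0.03 to 2.05 on the others. The part of either control in the p107 comparisons below was not tested.

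**Figure D1:**
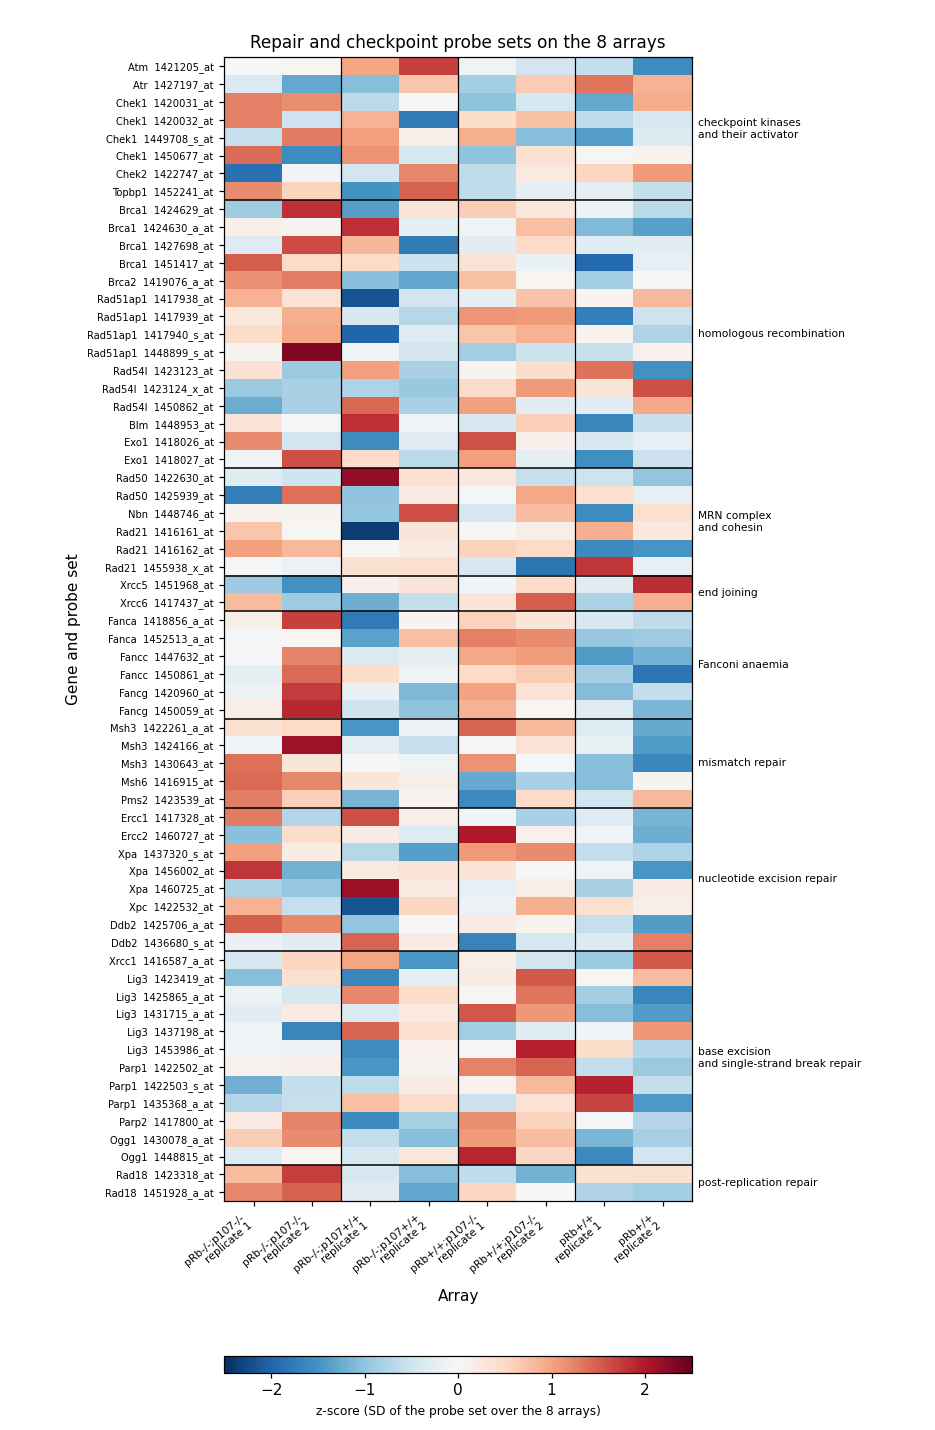
Scores of the 64 repair and checkpoint probe sets (rows, grouped by role) on the 8 arrays (columns, 2 for each genotype), coloured by z-score in SD units of the probe set over the 8 arrays. In the Fanconi anaemia and Msh3 rows the pRb+/+ arrays are blue (negative) throughout, while rows of checkpoint kinases show no shared order of genotypes.

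Loss of p107, compared over both pRb states, went with higher scores of many of these probe sets, and only 2 passed the test: 1 of the cohesin gene Rad21 and 1 of the base excision repair gene Ogg1. The comparison set the 4 p107-/- arrays against the 4 others. Of the 64 probe sets, 47 had a positive difference (73.4%, against 54.9% of all probe sets), with a median of 0.52 against 0.17 over all probe sets. The limma linear model without moderation called 2 members, both higher, with 3.04% of all probe sets called in either direction, so the count of calls among the members was near the background. At an unadjusted p below 0.05 there were 15 members (23.4%), against 24.9% of all probe sets. On 16 member probe sets of 13 genes all 4 p107-/- arrays lay above all 4 others, which is 25% of the members against 7.51% of all probe sets. On 1, of Lig3, they all lay below, against 8.23% of all probe sets. When names ending in _s_at, _x_at or _a_at were set aside, a choice made after the data were seen, 44 member probe sets were left. Of these 44, 8 lay above without overlap, a larger share than the 7.84% of the corresponding probe sets.

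**Figure D2:**
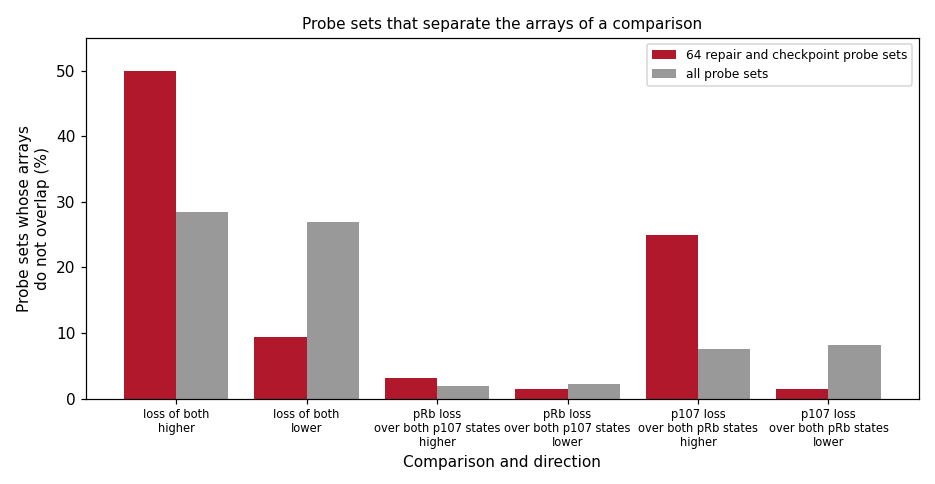
Percent of probe sets whose arrays do not overlap between the groups of a comparison, for the 64 repair and checkpoint probe sets (red) and all 22626 probe sets (grey), by direction. The members' bars are taller than the grey bars for higher scores with loss of both (50% against 28.5%) and with p107 loss (25% against 7.51%), and shorter for lower scores in the same comparisons.

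Rad21 encodes the kleisin subunit of cohesin, the ring that holds sister chromatids together and is needed for repair with the sister copy. Its probe set 1416162_at had 1.02 and 0.82 in the double mutant, 0.02 and 0.18 in pRb-/-;p107+/+, 0.56 and 0.47 in pRb+/+;p107-/-, against -1.6 and -1.47 in pRb+/+ skin. The 4 genotypes did not overlap, with pRb+/+ skin far below the other 3. Rad21 was 1.44 ± 0.08 higher with p107 loss over both pRb states (limma linear model, ± SE here and in later differences, adjusted p = 0.0173). Its other probe sets had another pattern. Probe set 1416161_at differed by 0.43 (adjusted p = 0.74) and 1455938_x_at by -1.18 (adjusted p = 0.319), so the call rests on 1 of the 3 Rad21 probe sets.

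Ogg1 encodes the glycosylase that removes oxidised guanine from DNA. Its probe set 1430078_a_at had 0.61 and 1.18 in pRb-/-;p107-/- skin, with 1.07 and 0.77 in pRb+/+;p107-/- skin, against -0.59 and -1.06 in pRb-/-;p107+/+ skin, with -1.15 and -0.83 in pRb+/+ skin. The p107-/- arrays lay above the others without overlap, and the pRb-/- and pRb+/+ arrays overlapped within each p107 state. Ogg1 was 1.82 ± 0.21 higher with p107 loss over both pRb states (limma linear model, adjusted p = 0.0442). The second Ogg1 probe set, 1448815_at, differed by 1.07 ± 0.49 (adjusted p = 0.276), with -0.33 and 0.04 in the double mutant, -0.4 and 0.29 in pRb-/-;p107+/+, 1.91 and 0.52 in pRb+/+;p107-/- and -1.59 and -0.45 in pRb+/+ skin. Its p107-/- arrays overlapped the others. Both calls were lost with limma's moderated test (adjusted p = 0.106 for either) and when any of the 8 arrays was left out (adjusted p from 0.0584 to 0.113 for Rad21 and from 0.0937 to 0.185 for Ogg1).

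**Figure D3:**
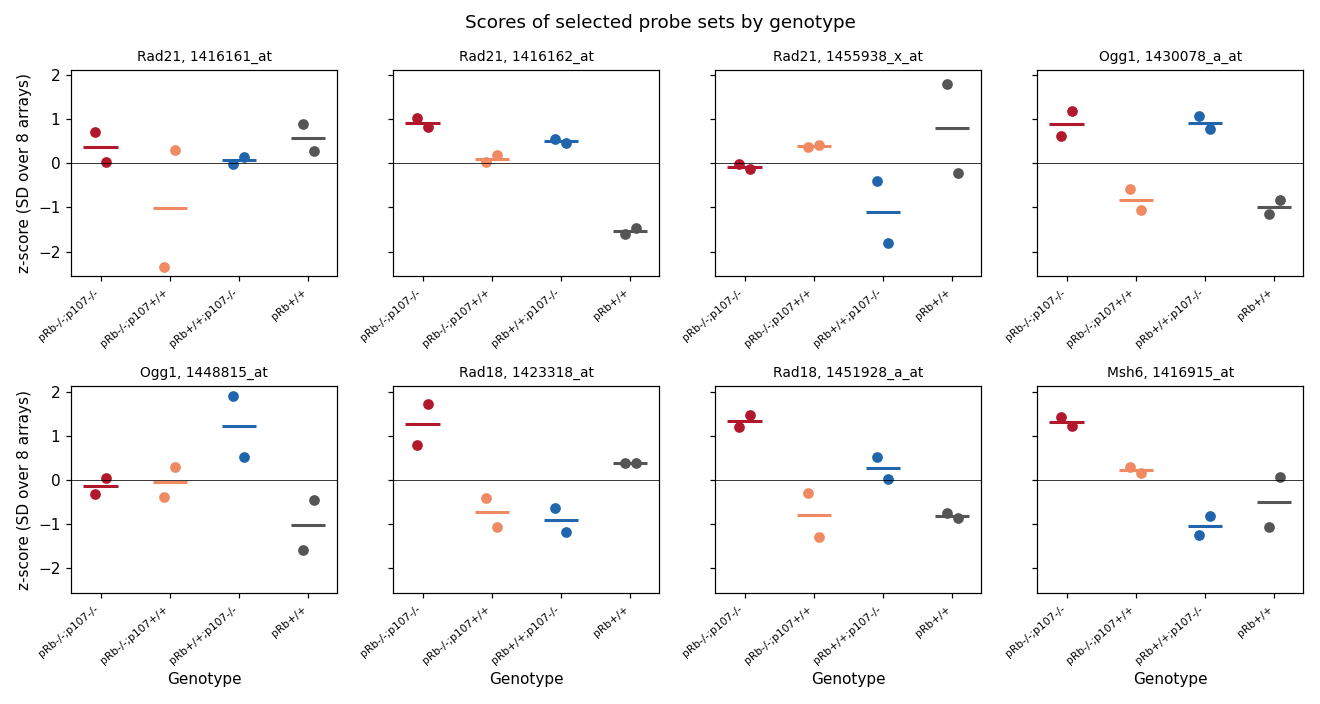
Z-scores of the 8 probe sets of Rad21, Ogg1, Rad18 and Msh6 (panels) by genotype, with 1 point for each array and a bar at the mean of the 2 arrays. The 3 Rad21 panels differ from each other, Ogg1 1430078_a_at splits the arrays by p107 status, Rad18 1423318_at is low in both single mutants, and Msh6 is highest on both pRb-/-;p107-/- arrays.

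The promoters of members were searched for E2F motifs, since pocket proteins act through E2F. RefSeq windows of 300 bases (250 before and 50 after the gene's start, GRCm38.p6) were at hand for 28 of the 35 genes, in 30 windows. Rad21 had no such window, so its promoter was not searched. The 8-letter forms TTTCGCGC and TTTGGCGC, on either strand, were found for 2 genes, Msh3 and Topbp1, in 6.67% of the member windows against 0.813% of all 32851 windows and 1.05% of protein-coding ones. The shorter forms TTCCCGC or TTCGCGC or TTGCCGC or TTGGCGC, which overlap the longer ones and were added after the data were seen, were found in 50% of the member windows, against 9.57% of all and 12.1% of protein-coding windows. Median GC content was 57.8% in the member windows, 52.7% in all and 56.3% in protein-coding windows. The letters TTTGAA of the CHR element were in 0 member windows and in 17.9% of all. The promoters of 4 members are shown up to the base before the gene's start, 5′ to 3′ on the gene's strand. Every E2F match is in capitals. Ogg1 was called with p107 loss, and Msh3 and Brca2 had probe sets on which p107-/- arrays separated from the others. Topbp1, an activator of Atr, has the motif, but its arrays overlapped. These 4 were chosen after their values were seen.
Ogg1 (chr6:113326726-113326975, + strand): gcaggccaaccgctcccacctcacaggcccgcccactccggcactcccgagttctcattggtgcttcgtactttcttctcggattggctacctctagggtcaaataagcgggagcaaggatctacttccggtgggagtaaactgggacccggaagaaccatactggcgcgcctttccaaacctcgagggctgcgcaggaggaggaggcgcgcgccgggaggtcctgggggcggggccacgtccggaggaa
Msh3 (chr13:92355004-92355253, - strand): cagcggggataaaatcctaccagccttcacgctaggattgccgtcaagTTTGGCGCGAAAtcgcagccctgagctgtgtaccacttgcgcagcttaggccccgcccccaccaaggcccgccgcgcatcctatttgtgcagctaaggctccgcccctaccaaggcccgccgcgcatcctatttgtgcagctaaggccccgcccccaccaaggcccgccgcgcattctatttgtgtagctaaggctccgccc
Brca2 (chr5:150522371-150522620, + strand): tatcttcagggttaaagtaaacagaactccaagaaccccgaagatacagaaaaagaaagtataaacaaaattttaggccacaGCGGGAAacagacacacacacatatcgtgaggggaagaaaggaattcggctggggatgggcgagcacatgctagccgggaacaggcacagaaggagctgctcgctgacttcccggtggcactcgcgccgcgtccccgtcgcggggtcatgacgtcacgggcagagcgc
Topbp1 (chr9:103305077-103305326, + strand): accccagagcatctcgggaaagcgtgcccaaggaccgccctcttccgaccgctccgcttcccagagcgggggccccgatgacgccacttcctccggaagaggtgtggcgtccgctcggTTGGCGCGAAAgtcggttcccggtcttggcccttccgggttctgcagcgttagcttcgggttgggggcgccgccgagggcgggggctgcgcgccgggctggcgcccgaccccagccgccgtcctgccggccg
The Msh3 window holds an 8-letter form on each strand, at positions -202 and -198 from the start, which overlap. The Topbp1 window holds 1 at -129, overlapping a shorter form at -132. Brca2 has a shorter match at -168, and Ogg1 has none. Topbp1 scored 1.18 and 0.55 in the double mutant, -1.5 and 1.47 in pRb-/-;p107+/+, -0.64 and -0.23 in pRb+/+;p107-/-, against -0.25 and -0.59 in pRb+/+ skin, and its arrays overlapped by either protein. A match or its absence is a description of these windows.

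The 3 Fanconi anaemia genes encode subunits of the core complex that marks crosslinked DNA for repair. All 6 of their probe sets had a positive difference for p107 loss over both pRb states, from 1.15 to 1.59 with a median of 1.42, and none passed. Fancc probe set 1447632_at had -0.02 and 1.22 in pRb-/-;p107-/- skin, with 0.94 and 1.04 in pRb+/+;p107-/- skin, against -0.35 and -0.23 in pRb-/-;p107+/+ skin, with -1.41 and -1.18 in pRb+/+ skin. The p107-/- arrays did not overlap the others, and the difference was 1.59 ± 0.32 (adjusted p = 0.0876). The second Fancc probe set, 1450861_at, differed by 1.15 (adjusted p = 0.258), and its p107-/- arrays overlapped the others. The differences were 1.48 and 1.49 for the Fancg probe sets and 1.36 and 1.21 for those of Fanca (adjusted p from 0.2 to 0.267). In the Fancg and Fanca probe sets the p107-/- arrays did not overlap the others, except in Fanca 1452513_a_at.

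Mismatch repair genes likewise had only positive differences for p107 loss over both pRb states (5 of 5, median 1.2), and none passed. Msh3, which takes part in recognising loops of unpaired bases, had 3 probe sets with differences of 1.58, 1.2 and 1.39 (adjusted p = 0.14, 0.328 and 0.158). In Msh3 1422261_a_at the scores were 0.38 and 0.5 in pRb-/-;p107-/- skin, with 1.46 and 0.82 in pRb+/+;p107-/- skin, against -1.45 and -0.14 in pRb-/-;p107+/+ and -0.32 and -1.26 in pRb+/+ skin. In Msh3 1430643_at the p107-/- arrays overlapped the others, with -0.02 on a pRb+/+;p107-/- array and 0 on a pRb-/-;p107+/+ array. Msh6, which takes part in recognising single mismatches, had a difference of 0.28 (adjusted p = 0.626), and the mismatch endonuclease gene Pms2 differed by 0.38 (adjusted p = 0.777).

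Of 15 homologous recombination probe sets, 12 had a positive difference for p107 loss over both pRb states, with a median of 0.85. Brca2, a tumour suppressor needed for repair of breaks by homologous recombination, had 1.15 and 1.28 in double mutant skin, with 0.73 and 0.04 in pRb+/+;p107-/- skin, against -1.04 and -1.3 in pRb-/-;p107+/+ skin, with -0.86 and 0 in pRb+/+ skin. The p107-/- arrays lay just above the others, and the difference, 1.6 ± 0.29, missed the threshold (adjusted p = 0.0741). Rad51ap1, a homologous recombination gene, had 4 positive probe sets, from 0.51 to 1.65, and the 4 probe sets of Brca1 ran from 0.43 to 1.11. The 3 probe sets of Rad54l, a motor protein that remodels the recombination intermediate, were negative, from -0.65 to -0.02. The exonuclease gene Exo1 differed by 1.22 and 1.14, and the helicase gene Blm by 0.24.

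Excision repair genes were divided. Xpa, which verifies damage in nucleotide excision repair, had probe sets of differing sign for p107 loss over both pRb states. In 1437320_s_at the Xpa scores were 1.02 and 0.19 in the double mutant and 1.07 and 1.19 in pRb+/+;p107-/- skin, against -0.72 and -1.37 in pRb-/-;p107+/+ and -0.59 and -0.78 in pRb+/+ skin. These groups did not overlap, and the difference was 1.74 ± 0.27 (adjusted p = 0.0616), against 0.47 and -0.88 in the other Xpa probe sets. The 2 probe sets of Ddb2, a damage sensor of the same pathway, differed by 1.49 and -1.28, and the damage sensor gene Xpc by 0.51. Ercc1, part of the nuclease that cuts on 1 side of the damage, differed by -0.15 and the helicase gene Ercc2 by 0.75.

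In base excision and single-strand break repair, the ligase gene Lig3 had 5 probe sets that ran from -1.45 to 1.29 for p107 loss over both pRb states. Parp1, which marks strand breaks with poly(ADP-ribose), had 1.46, -0.44 and -0.74, its relative Parp2 had 1.59 (adjusted p = 0.121), and the scaffold gene Xrcc1 had -0.07. Rad18, a ubiquitin ligase that starts repair behind the replication fork, differed by 1.61 ± 0.29 in 1451928_a_at (adjusted p = 0.0748) and by 0.35 in 1423318_at. Among checkpoint genes no direction was shared: 4 of 8 probe sets were positive, with a median of 0.01, from Chek2 at -1.17 to a Chek1 probe set at 0.96. The end joining genes Xrcc5 and Xrcc6 differed by -1.02 and 0.86. Rad50 differed by -0.55 and 0.29, and Nbn by 0.26. Over the 17 genes with several probe sets, all probe sets of a gene had 1 sign in 10 (58.8%), against 48.1% of all such genes.

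p107 loss was also compared in each pRb state by itself. The comparisons in pRb-/- skin and in pRb+/+ skin share no array. In pRb-/- skin 40 of 64 were positive (median 0.81, against -0.1 over all probe sets), 0 members passed with 1.37% of all probe sets called, and 9 members (14.1%) had an unadjusted p below 0.05, against 19.2% of all. In pRb+/+ skin 45 were positive (median 0.83, against 0.35), and 1 member, Rad21 1416162_at, passed with 0.42% of all called. There 13 members (20.3%) had an unadjusted p below 0.05, against 19.4% of all. The limma moderated test called 0 probe sets in both. The member medians moved with the scaling: with array medians subtracted they were 0.96 in pRb-/- skin and 0.52 in pRb+/+ skin, and quantile normalization gave 0.55 in pRb+/+ skin. Leaving out 1 array took the median in pRb-/- skin as low as 0.33. Positive differences in both pRb states were those of 31 of 64 (48.4%, against 33.6% of all probe sets), negative in both were 10 (15.6%, against 27.5%), and opposite were 23 (35.9%, against 38.9%).

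**Figure D4:**
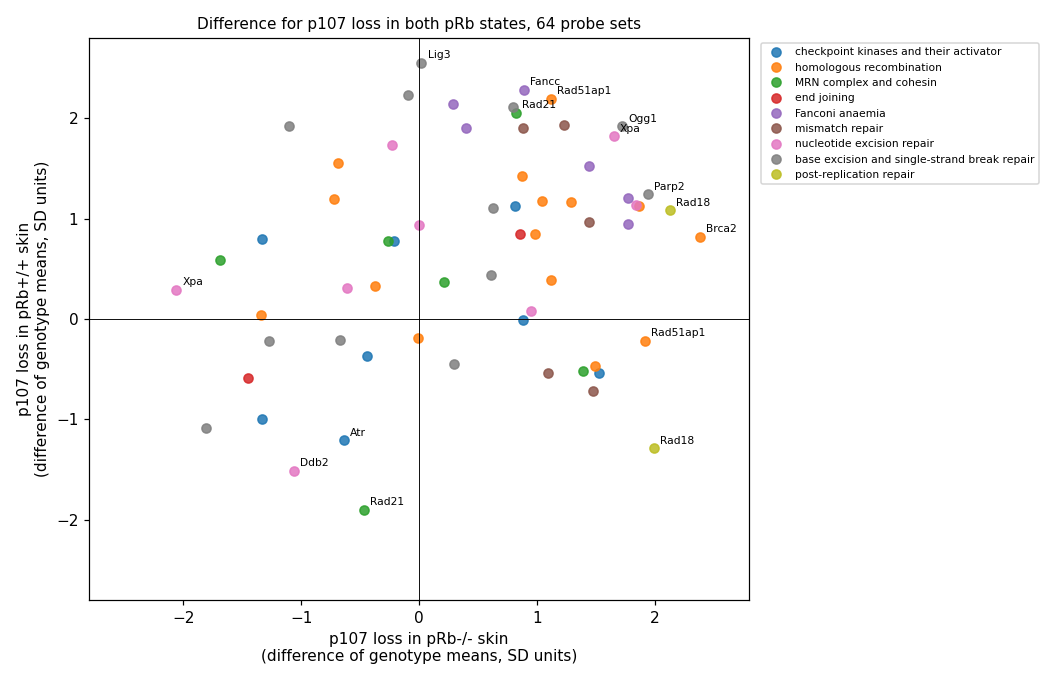
Difference for p107 loss in pRb-/- skin (x axis) and in pRb+/+ skin (y axis) for the 64 probe sets, in SD units, coloured by role. All 6 Fanconi anaemia points are positive on both axes, as are 31 of the 64 probe sets.

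In pRb-/- skin the smallest p-values were those of Rad21 1416162_at (0.82 ± 0.11, adjusted p = 0.0664), Brca2 (2.38 ± 0.4, adjusted p = 0.0969), Ogg1 1430078_a_at (1.72 ± 0.3, adjusted p = 0.102) and Rad18 1451928_a_at (2.13 ± 0.41, adjusted p = 0.113). Rad18 1451928_a_at had 1.2 and 1.48 in the double mutant, -0.29 and -1.29 in pRb-/-;p107+/+, 0.52 and 0.01 in pRb+/+;p107-/-, against -0.76 and -0.87 in pRb+/+ skin. Both p107-/- genotypes lay above the others. In pRb+/+ skin Rad21 1416162_at rose by 2.05 ± 0.11 (limma linear model, adjusted p = 0.0385), a call lost when array medians were subtracted (adjusted p = 0.0703), after quantile normalization (0.0693), with moderation (0.182) and when any of the 8 arrays was left out (0.0816 to 0.25). Next there came Lig3 1431715_a_at (2.55 ± 0.34, adjusted p = 0.0802), Ogg1 1430078_a_at (1.92 ± 0.3, adjusted p = 0.0962) and Fancc 1447632_at (2.28 ± 0.45, adjusted p = 0.123). The Lig3 probe set had -0.28 and 0.2 in the double mutant, -0.37 and 0.24 in pRb-/-;p107+/+, 1.56 and 1.09 in pRb+/+;p107-/-, against -1.07 and -1.39 in pRb+/+ skin. It separated the pRb+/+;p107-/- arrays from the pRb+/+ arrays, while those of the pRb-/- genotypes overlapped. In pRb+/+ skin the 5 Lig3 probe sets ran from -1.09 to 2.55, and 1 was negative.

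Loss of pRb went with no shared direction. Over both p107 states 36 of 64 probe sets had a positive difference (median 0.07, against -0.08 over all probe sets), and 0 members passed the limma linear model with 0.181% of all probe sets called. The moderated test called 0 as well, and 4 members (6.25%) had an unadjusted p below 0.05, against 13.2% of all probe sets. The smallest p was that of Rad21 1416162_at (1.02 ± 0.08, adjusted p = 0.0554), whose pRb-/- arrays overlapped with those that keep pRb. On 2 probe sets, of Msh6 and Atm, all 4 pRb-/- arrays lay above the 4 others (1.97% of all probe sets did), and on 1, of Rad54l, they lay below (2.24% of all).

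Msh6 had 1.42 and 1.21 in double mutant skin, with 0.3 and 0.15 in pRb-/-;p107+/+ skin, against -1.26 and -0.82 in pRb+/+;p107-/- skin, with -1.07 and 0.07 in pRb+/+ skin. The difference for pRb loss over both p107 states was 1.54 ± 0.31 (adjusted p = 0.218), and the double mutant stood above every other array. Atm had 0.01 and 0.04 in the double mutant and 0.99 and 1.71 in pRb-/-;p107+/+ skin, against -0.1 and -0.48 in pRb+/+;p107-/- and -0.6 and -1.58 in pRb+/+ skin. Its difference was 1.38 ± 0.32 (adjusted p = 0.248), and both pRb-/-;p107+/+ arrays were highest. Rad54l 1423124_x_at had -0.92 and -0.81 in the double mutant and -0.78 and -0.94 in pRb-/-;p107+/+ skin, against 0.46 and 1.06 in pRb+/+;p107-/- and 0.31 and 1.61 in pRb+/+ skin. Its difference was -1.72 ± 0.36 (adjusted p = 0.227), and the other Rad54l probe sets had -0.16 and -0.72, the same sign.

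Where p107 was kept, 35 of 64 had a positive difference for pRb loss (median 0.13, against 0.12 over all). The limma linear model and the moderated test called 0 probe sets of any gene (0%), and 6 members (9.38%) had an unadjusted p below 0.05, against 13.4% of all. Rad21 1416162_at (1.63 ± 0.11, adjusted p = 0.076), Atm (2.44 ± 0.45, adjusted p = 0.185), Rad54l 1423124_x_at (-1.81 ± 0.51, adjusted p = 0.298) and Lig3 1425865_a_at (2.08 ± 0.6, adjusted p = 0.307) had the smallest p-values. The Lig3 probe set had -0.14 and -0.4 in the double mutant, 1.2 and 0.46 in pRb-/-;p107+/+, 0.03 and 1.33 in pRb+/+;p107-/-, against -0.85 and -1.63 in pRb+/+ skin, and pRb+/+ skin was lowest. The 5 Lig3 probe sets ran from -1.36 to 2.08 in this comparison, and 2 were negative. All probe sets of a gene had 1 sign in 3 of the 17 genes with several (17.6%), against 40.2% of all such genes. In p107-/- skin 31 of 64 were positive (median -0.05, against -0.33 over all), 0 members passed with 0.256% of all probe sets called, and 5 (7.81%) had an unadjusted p below 0.05, against 12% of all. The moderated test called 0 there. The smallest p-values were those of Msh6 (2.35 ± 0.44, adjusted p = 0.202), Rad18 1423318_at (2.17 ± 0.44, adjusted p = 0.216), Lig3 1431715_a_at (-1.36 ± 0.34, adjusted p = 0.279) and Rad21 1416162_at (0.4 ± 0.11, adjusted p = 0.302). Of the 12 base excision and single-strand break repair probe sets, 11 were negative here (median -1), where only 37.4% of all probe sets were positive. These 12 belong to 5 genes, with 5 probe sets of Lig3 and 3 of Parp1. The sign of the member median in both comparisons turned with the scaling: it was -0.04 where p107 was kept and 0.12 in p107-/- skin after quantile normalization.

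Against pRb+/+ skin, loss of both proteins gave 1 call among the members and separated the arrays on many more of their probe sets. Positive differences were found in 45 of 64 (median 0.93, against 0.1 over all probe sets). Rad21 1416162_at rose by 2.45 ± 0.11 (limma linear model, adjusted p = 0.0121), the only member called, with 2.94% of all probe sets called. In 12 members (18.8%) the unadjusted p was below 0.05, against 22.3% of all. The 2 pRb-/-;p107-/- arrays lay above both pRb+/+ arrays in 32 member probe sets (50%, against 28.5% of all) and below them in 6 (9.38%, against 26.9%). The Rad21 call was lost with the moderated test (adjusted p = 0.127) and without any pRb+/+, pRb+/+;p107-/- or pRb-/-;p107-/- array (adjusted p from 0.0716 to 0.1).

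After Rad21 and Ogg1 1430078_a_at (1.89 ± 0.3, adjusted p = 0.0691), the smallest p-values with loss of both were those of Rad18 1451928_a_at (2.16 ± 0.41, adjusted p = 0.0879) and Ddb2 1425706_a_at (2.34 ± 0.47, adjusted p = 0.095). Ddb2 had 1.49 and 1.2 in the double mutant, -0.99 and 0 in pRb-/-;p107+/+, 0.2 and 0.08 in pRb+/+;p107-/-, against -0.58 and -1.4 in pRb+/+ skin. The double mutant was highest and did not overlap the other genotypes, whereas in the second Ddb2 probe set it differed from pRb+/+ skin by -0.68. By role, all 6 Fanconi anaemia probe sets (median 1.7) and all 5 of mismatch repair (median 1.82) had positive differences, from 3 genes each. Those of homologous recombination were positive in 12 of 15 (median 1.05), and both Rad18 probe sets were positive. Checkpoint genes had 5 of 8 positive (median 1) and nucleotide excision repair 5 of 8 (median 0.7). Base excision and single-strand break repair had 7 of 12 (median 0.46), and Rad50, Nbn and Rad21 together 3 of 6 (median 0.07). Over all probe sets 52.3% were positive. Both end joining genes were negative: Xrcc5, which encodes Ku80, differed by -2.01 (adjusted p = 0.26) and Xrcc6, which encodes Ku70, by -0.1. Among checkpoint kinases, Atr differed by -1.91 (adjusted p = 0.314) and Chek2 by -1.76 (adjusted p = 0.365), against 1.11 for Atm and from -0.14 to 1.39 for Chek1. Nbn and Rad50, partners in the complex that holds broken ends, differed by 0.66 and by 0.35 and -0.27.

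Among all 4 genotypes 1 member passed the F test of the limma linear model, Rad21 1416162_at (adjusted p = 0.0323), with 1.28% of all probe sets called. That call was lost when array medians were subtracted (adjusted p = 0.0651), after quantile normalization (0.0686), with moderation (0.179) and when any of the 8 arrays was left out (0.0856 to 0.166). The lowest genotype mean was that of pRb+/+ skin in 27 of 64 member probe sets (42.2%, against 32.5% of all probe sets). The highest was that of pRb-/-;p107-/- skin in 21 (32.8%, against 21.7%), and that of pRb+/+;p107-/- skin in 21 (32.8%, against 31.1%). The test of whether p107 loss differed between pRb-/- and pRb+/+ skin called 0 probe sets of any gene (0%) with or without moderation, and 5 members (7.81%) had an unadjusted p below 0.05, against 13.1% of all. Those with the smallest p were Rad21 1416162_at (-1.23 ± 0.15, adjusted p = 0.127), Lig3 1431715_a_at (-2.53 ± 0.48, adjusted p = 0.2), Rad18 1423318_at (3.29 ± 0.63, adjusted p = 0.2) and Lig3 1425865_a_at (-3.02 ± 0.86, adjusted p = 0.299). Rad18 1423318_at had 0.8 and 1.72 in the double mutant, -0.41 and -1.06 in pRb-/-;p107+/+, -0.64 and -1.19 in pRb+/+;p107-/-, against 0.39 and 0.38 in pRb+/+ skin. Its score was lower in both single mutants than in either other genotype. The other Rad18 probe set, 1451928_a_at, had 1.05 in this test (adjusted p = 0.538). It was higher in pRb+/+;p107-/- than in pRb+/+ skin, the reverse of 1423318_at.

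A further 109 genes of the same pathways, of which 82 had 138 single-gene probe sets, were described alongside. For p107 loss over both pRb states 84 of the 138 probe sets were positive (60.9%, against 54.9% of all probe sets), with a median of 0.33, against 0.17 over all. The linear model called 5 of them, 3 that rose and 2 that fell, beside 3.04% of all probe sets, and the moderated test called 0. The probe sets that rose were of the flap endonuclease gene Fen1 (1.56 ± 0.18, adjusted p = 0.0425), the endonuclease gene Apex2 (1.78 ± 0.22, adjusted p = 0.0484) and the MutS homologue gene Msh5 (1.65 ± 0.18, adjusted p = 0.0413). Those that fell were of the glycosylase gene Mbd4 (-1.74 ± 0.2, adjusted p = 0.0439) and the TFIIH helicase gene Ercc3 (-1.66 ± 0.19, adjusted p = 0.0425). With loss of both, 2.94% of all probe sets were called and moderation again left 0. There the same probe sets of Fen1 (2.33 ± 0.25) and Msh5 (2.17 ± 0.26) rose and that of Ercc3 (-2.41 ± 0.27) fell. These values are of the called probe sets only, and any others of the same genes are not given here. By list, the other Fanconi anaemia genes had 7 of 8 positive probe sets for p107 loss over both pRb states (median 0.73). The other mismatch repair genes had 3 of 4 (median 0.89), and the other excision repair genes 24 of 38 (median 0.39). Other checkpoint and damage signalling genes had 17 of 27 (median 0.45). The other homologous recombination and end joining genes had 14 of 25 (56%, median 0.3), near the share of all probe sets. The other translesion synthesis and cohesin genes had 19 of 36 (median 0.03).

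Several other gene groups, though not all, also differed by p107 status, and their part in the scores of the repair genes was not tested. For these lists, rose and fell mean that a probe set passed the test in that direction, while positive gives only the sign. Over all probe sets, 54.9% were positive and 3.04% called for p107 loss over both pRb states. For pRb loss over both p107 states 46.2% were positive and 0.181% called. Of 57 probe sets of 29 proliferation markers, 41 were positive for p107 loss over both pRb states (3 rose and 2 fell), and 47 for pRb loss (none passed). The mean score of the proliferation markers was 0.66 and 0.38 in the double mutant and 0.26 and 0.05 in pRb-/-;p107+/+. It was -0.04 and -0.17 in pRb+/+;p107-/-, against -0.76 and -0.39 in pRb+/+ skin, so these means overlapped by p107 status. The mean score of the repair members was 0.19 and 0.34 in the double mutant, -0.2 and -0.14 in pRb-/-;p107+/+, 0.24 and 0.33 in pRb+/+;p107-/-, against -0.4 and -0.35 in pRb+/+ skin. Over all probe sets the mean was -0.1 and -0.07 in the double mutant, 0.14 and -0.1 in pRb-/-;p107+/+, 0.22 and 0.11 in pRb+/+;p107-/-, against -0.18 and -0.01 in pRb+/+ skin. On replicate 1 of pRb+/+;p107-/- the repair members (0.24) were thus close to all probe sets (0.22). Of 18 hair follicle probe sets, 11 fell with p107 loss, and their mean score ran from -0.8 to -0.35 on the 4 p107-/- arrays and from 0.24 to 0.89 on the others. Epidermal keratinocyte markers were positive in 14 of 16 (none passed), with means from 0.24 to 0.89 on the p107-/- arrays and from -0.55 to -0.37 on the others. Mast cell markers rose in 6 of 12 probe sets and fell in 1, with means from 0.43 to 0.82 on the p107-/- arrays and from -0.7 to -0.48 on the others. Erythroid markers rose in 2 of 7, with means from 0.13 to 0.28 on the p107-/- arrays and from -0.4 to -0.05 on the others. With p107 loss, 2 of 19 fibroblast, 2 of 16 adipocyte and 1 of 15 lymphocyte and macrophage probe sets passed the test as lower. In these 3 lists the array means overlapped by p107 status. None of the 16 skeletal muscle probe sets passed. The p53 target genes, several of which encode damage response proteins, were positive in 21 of 31 for p107 loss and in 25 of 31 for loss of both (median 1.24), and none passed. Their array means overlapped by p107 status. For loss of both, 52.3% of all probe sets were positive (median 0.1) and 2.94% were called.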

How the data were processed

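Per the submitters' processing notes, arrays were processed with RMA, with no version named. Per the labels, RNA came from 30 mg of skin. The deposited value is a score with mean 0 and SD 1 per probe set over the 8 arrays. Neither the scale before standardization nor signal over background is known, so the depth of signal cannot be given, and the number of arrays limits the precision. Probe sets were named from the platform annotation: 20380 had 1 symbol, 691 several and 1555 none. Of the 22690 probe sets, 64 array controls were left out.

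A linear model with 1 coefficient per genotype was fitted to all 8 arrays with limma 3.58.1 in R 4.3.3 (4 residual degrees of freedom). Contrasts were tested without moderation, because standardization ties each variance to the differences. Benjamini-Hochberg adjustment ran over the 22626 remaining probe sets (threshold 0.05). The fit was tested on simulated data. Scores of every array are given for members called in any contrast and for the 4 smallest p-values of each contrast. Members, lists and tests were chosen with earlier results of these data known. Alternatives were moderation, quantile normalization, array medians subtracted, the replicate number as a block, fewer probe sets and each array left out. Same-numbered arrays were not paired: the correlation of their deviations from genotype means ran from -0.131 to 0.105.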

Additional observations from a re-analysis of the deposited data

Results flagged for a closer look

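Control probe sets lie outside the comparisons, and some were higher than in pRb+/+ skin. The mean score of the poly-A controls was 1.25 in pRb-/-;p107+/+ skin, against 0.24 in pRb+/+ skin. The Gapdh controls averaged 0.01 in double mutant skin, 0.8 with only pRb lost and 0.69 with only p107 lost, against -1.5 in pRb+/+ skin. The beta-actin controls averaged 1.31 in pRb-/-;p107+/+ skin, against -0.28 in pRb+/+ skin. In each of these cases both arrays lay above both pRb+/+ arrays. Others went the opposite way. The beta-actin controls had -1 and -1.08 on the double mutant arrays, against 0.3 and -0.86 on the pRb+/+ arrays. The hybridization controls ran from -0.8 to 0.09 on the 6 mutant arrays, against 0.37 and 2.05 on the pRb+/+ arrays. The poly-A controls ran from -0.96 to -0.55 on the 4 p107-/- arrays, against 0.3 and 0.19 on the pRb+/+ arrays. The part of these differences in the scores of the repair genes was not tested.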

How the results depend on the processing

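Calls depended on the test and on single arrays. With limma's moderation, 0 probe sets passed in any of the comparisons. With the replicate number as a block, which stands for no known pairing, the calls over all probe sets were 1 for pRb loss where p107 was kept, 2 and 1 for p107 loss in pRb-/- and pRb+/+ skin, 0 for pRb loss in p107-/- skin, 37 for loss of both, 0 for pRb loss and 34 for p107 loss over both states of the other gene, and 3 for the F test, and 0 members were called (Rad21 adjusted p from 0.065 to 0.125, Ogg1 0.119). Quantile normalization gave 171 calls for p107 loss in pRb-/- skin, 370 for loss of both, 0 for pRb loss over both p107 states and 150 for the F test. It called 0 members for p107 loss in pRb+/+ skin and by the F test, where the adjusted p of Rad21 was 0.0693 and 0.0686. Member medians then became -0.04 and 0.12 for pRb loss where p107 was kept and where it was lost, 0.55 for p107 loss in pRb+/+ skin and 0.09 for the interaction. With array medians subtracted the calls were 137 and 52 for p107 loss in pRb-/- and pRb+/+ skin, 2 and 12 for pRb loss in p107-/- skin and over both p107 states, and 97 for the F test. Members called were then 2 for loss of both, and 0 for p107 loss in pRb+/+ skin and the F test. Member medians were then -0.06 and 0.23 for pRb loss where p107 was kept and where it was lost, 0.96 and 0.52 for p107 loss in pRb-/- and pRb+/+ skin, and 0.28 for the interaction. Leaving out probe sets whose names end in _s_at, _x_at or _a_at, which tests fewer probe sets, gave 4 calls for pRb loss where p107 was kept, 201 and 55 for p107 loss in pRb-/- and pRb+/+ skin, 385 for loss of both, 379 for p107 loss over both pRb states, 1 for the interaction and 151 for the F test. It left 1 member called with p107 loss, 8 higher without overlap and, for pRb loss, 0 lower. With each array left out in turn, the calls over all probe sets ranged from 0 to 4 for pRb loss alone, with p107 kept, from 0 to 17 and 0 to 2 for p107 loss in pRb-/- and pRb+/+ skin, 0 to 2 for pRb loss in p107-/- skin and over both p107 states, 0 to 242 for loss of both, 0 to 60 for p107 loss over both pRb states, 0 to 1 for the interaction and 0 to 4 for the F test. Members called ranged from 0 to 2 for loss of both and from 0 to 1 for p107 loss over both pRb states, and were 0 elsewhere. Member medians ranged from 0.12 to 0.46 for pRb loss with p107 kept, 0.33 to 0.87 and 0.76 to 0.97 for p107 loss in pRb-/- and pRb+/+ skin, -0.25 to -0.05 for pRb loss in p107-/- skin, 0.73 to 1.02 for loss of both, -0.04 to 0.23 for pRb loss and 0.52 to 0.86 for p107 loss over both states of the other gene, and -0.45 to -0.06 for the interaction. Without overlap, 16 to 20 members were higher and 1 to 3 lower with p107 loss, and 2 to 4 higher and 1 to 2 lower with pRb loss. The cause of these changes was not tested, and the settings that left out arrays or probe sets also had fewer of them. No result changed direction after passing the test. Medians, overlap counts and their alternatives were added after the data were seen. With 2 arrays for each genotype and no signal over background, precision is limited by the number of arrays.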
